A study of Mus musculus with 24 samples.

Results

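The genes described here are the nuclear subunits of mitochondrial complex I and its assembly factors, taken as every gene in the deposited table whose symbol starts with Nduf. Of 47 such rows, 1 was a pseudogene and was left out, which left 46 genes of 53465 in the table. They comprise 7 catalytic core subunits, 9 accessory subunits of the N and Q modules, 9 accessory subunits of the proximal membrane arm, 11 accessory subunits of the distal membrane arm, 8 assembly factors (Ndufaf genes), and 2 genes that keep the name but are placed outside complex I, Ndufa4 and Ndufa4l2. Their messenger RNA was measured in RN2 cells, a leukaemia line of the mouse (acute myeloid, genotype Mll-Af9 and NrasG12D), grown in RPMI with serum and transduced by retrovirus with a doxycycline-inducible short hairpin RNA.

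The study asked what the loss of Ogdh does to these cells. The hairpins shOgdh346 (clones 1 and 5) and shOgdh2081 (clones 3 and 5) are directed against Ogdh, the E1 subunit of the 2-oxoglutarate dehydrogenase complex of the citric acid cycle, which delivers NADH to complex I. Clones 2 and 7 carried the control hairpin, shRen713. Libraries came from doxycycline-treated cells at day 4 and from untreated cells at day 0, with 2 libraries per clone and day, so that 24 libraries form 6 groups of 4. All groups share the leukaemia genotype and a hairpin vector, and the day 4 groups of both kinds share the doxycycline. Each hairpin is represented by 2 clones only, and a clone number names separate clones under different hairpins. The labels do not say whether the 2 libraries of a clone and day came from separate cultures, so their counts were summed and the clone is the replicate. Library totals ran from 7209186 to 20705468 counts.

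Complex I, NADH:ubiquinone oxidoreductase, passes electrons from NADH through a flavin and a chain of iron-sulphur clusters to ubiquinone and pumps protons across the inner mitochondrial membrane. Its peripheral arm consists of the N module, which oxidises NADH, and the Q module, which reduces ubiquinone, while its membrane arm holds the proton pumps, whose cores are encoded by mitochondrial DNA. The nuclear subunits are imported, and assembly factors build the modules and leave before the enzyme is complete.

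The knockdown itself was visible in every Ogdh clone. With shOgdh346, Ogdh stood at 35.8 and 35.7 CPM (counts scaled to the same library total) in clone 1 and 53.6 and 58.7 CPM in clone 5 at day 4. With shOgdh2081 it stood at 69.2 and 71.7 CPM in clone 3 and 32.9 and 38.6 CPM in clone 5. The control libraries of day 4 held 206, 207, 235 and 251 CPM. At day 0 the libraries held 124, 135, 145 and 148 CPM with shOgdh346 and 178, 233, 161 and 169.6 CPM with shOgdh2081, against 200.3, 214, 242 and 247 CPM in the control. Every shOgdh346 library was thus already below every control library before doxycycline. So were the shOgdh2081 libraries other than replicate 2 of clone 3 (233 CPM). For CPM, library totals were scaled by TMM except where unscaled totals are named, and changes are in log2 units. The net change is the day 4 minus day 0 change of the Ogdh hairpins minus the same change of the control hairpin. It was tested by quasi-likelihood in edgeR, adjusting by Benjamini-Hochberg over the 14249 genes that passed the filter on low counts, 45 of them Nduf genes, and a gene is said to have risen or fallen at an adjusted p under 0.05. The p-values of the net change rest on how far the day 4 minus day 0 changes differ between clones of a hairpin. That spread is pooled over the hairpins and moderated across genes. Values after ± are standard errors. For Ogdh itself the net change was -1.75 ± 0.18 (adjusted p = 0.0004).

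Across both hairpins, 21 of the 45 tested Nduf genes fell and 2 rose. Of all genes tested, 19.8% fell and 17.9% rose in the same comparison. The median net change of the Nduf genes was -0.41, with 40 of 45 below 0, against a median of -0.002 over all genes. The 21 that fell were, in order of size, Ndufaf4 (-1.27), Ndufa5 (-0.87), Ndufaf2 (-0.69), Ndufv1 (-0.65), Ndufaf5 (-0.65), Ndufa12 (-0.62), Ndufaf8 (-0.62), Ndufb5 (-0.57), Ndufa10 (-0.56), Ndufaf3 (-0.56), Ndufv2 (-0.54), Ndufs7 (-0.51), Ndufab1 (-0.48), Ndufa3 (-0.46), Ndufc2 (-0.45), Ndufs8 (-0.42), Ndufb10 (-0.42), Ndufs3 (-0.42), Ndufa4 (-0.41), Ndufa9 (-0.39) and Ndufb8 (-0.32). Ndufa13 (0.47) and Ndufv3 (0.32) rose, the call of Ndufv3 being lost under 24 of 38 alternative settings. The count depends on both control clones being present: without shRen713 clone 2, and likewise without shRen713 clone 7, 6 Nduf genes fell and none rose, with 8.20% and 7.30% of all genes falling. Without the clone as a block, 13 fell, with 11.2% of all genes. In bulk libraries such as these, fewer cells of a type and less RNA per cell cannot be told apart.

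**Figure D1:**
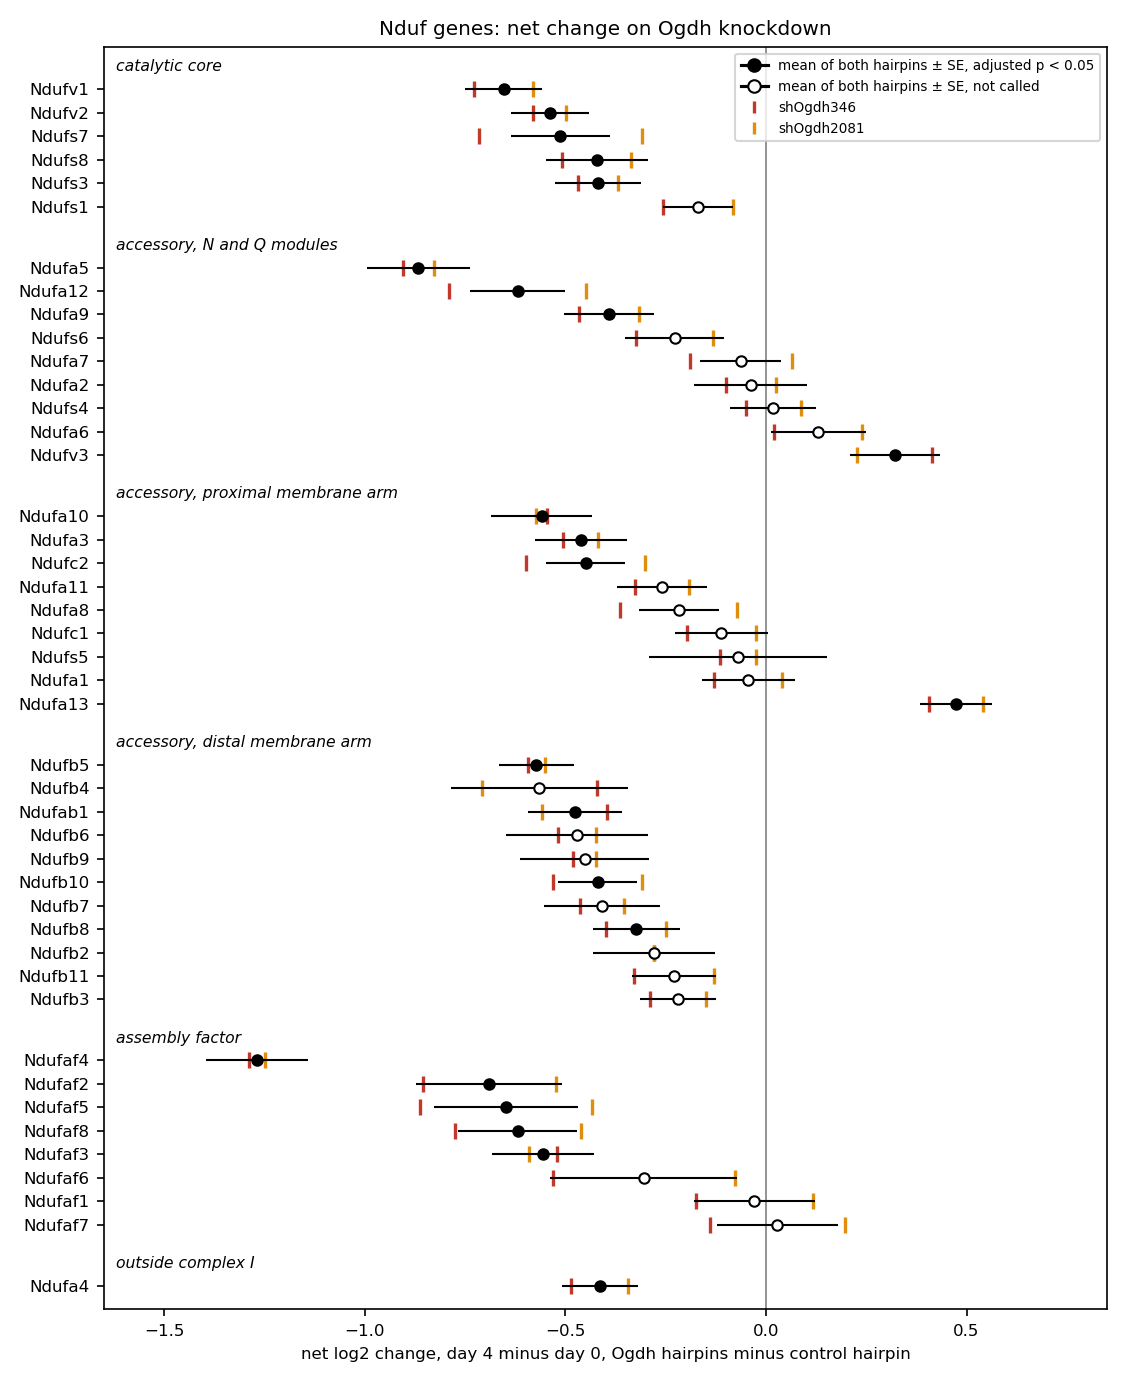
Net log2 change (x axis) of the tested Nduf genes reported by name (rows, grouped by role). Circles give the mean of both Ogdh hairpins with its standard error, filled where the adjusted p was under 0.05, and coloured ticks give each hairpin. All 11 distal membrane arm genes and all core genes shown lie left of 0, Ndufaf4 stands at -1.27, and Ndufa13 and Ndufv3 are the filled circles right of 0.

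Promoter sequence is given for members that fell, since many members moved together. RefSeq (GRCm38.p6) promoter windows matched 40 of the 46 members. The windows printed are those of the largest fall and of the core subunits that fell, where the 250 bases before the RefSeq start hold no annotated exon. Capitals mark matches, on either strand, to the motifs searched. Those for factors tied to respiratory genes were GCGCATGCG for NRF1, AAGATGGCG for YY1, and CCGGAAG for ETS factors such as GABP. The more general ones were the GC box, searched as GGGCGG, the box named by its letters CCAAT, and the E-box that MYC and its relatives bind, searched as CACGTG. The windows of Ndufaf4, Ndufv2 and Ndufs8 lie, in this order, at chr4:24897833-24898082 (plus strand), chr17:66101560-66101809 (minus strand) and chr19:3912775-3913024 (minus strand) of GRCm38.
Ndufaf4: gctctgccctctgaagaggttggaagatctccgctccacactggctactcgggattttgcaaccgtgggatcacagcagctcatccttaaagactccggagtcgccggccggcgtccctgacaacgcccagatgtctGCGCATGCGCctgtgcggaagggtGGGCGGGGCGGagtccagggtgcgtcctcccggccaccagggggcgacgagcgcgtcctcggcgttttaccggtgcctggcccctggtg
Ndufv2: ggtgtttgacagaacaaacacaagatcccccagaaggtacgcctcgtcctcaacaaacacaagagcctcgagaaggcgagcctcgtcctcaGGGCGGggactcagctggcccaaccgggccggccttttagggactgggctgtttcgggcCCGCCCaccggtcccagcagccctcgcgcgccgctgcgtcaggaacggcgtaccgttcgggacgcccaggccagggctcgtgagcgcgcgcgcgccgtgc
Ndufs8: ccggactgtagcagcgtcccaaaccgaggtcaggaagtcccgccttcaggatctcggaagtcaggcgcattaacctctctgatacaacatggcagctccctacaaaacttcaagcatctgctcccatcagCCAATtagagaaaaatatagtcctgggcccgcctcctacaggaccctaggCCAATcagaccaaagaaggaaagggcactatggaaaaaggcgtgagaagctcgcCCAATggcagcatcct
The Ndufaf4 window held 2 NRF1 matches that overlap on opposite strands and 2 GC boxes that share bases, the Ndufv2 window 2 GC boxes on opposite strands, and the Ndufs8 window 3 CCAAT boxes. Over the 250 bases before the start, NRF1 motifs were found in 3 of 40 members (7.5%) against 1.49% of all 27025 promoters. GC boxes were found in 47.5% of members against 32.9%, ETS motifs in 12.5% against 7.05%, CCAAT boxes in 35% against 34.5%, E-boxes in 5% against 6.05%, and the YY1 motif in 0 of 40 against 0.607%. Among the 21 members that fell, 12 held a GC box and 1 the NRF1 motif, and among the 19 others 7 and 2. A match of letters is a description and not a binding site.

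The catalytic core carries the flavin, the iron-sulphur clusters and the ubiquinone site. Of its 7 nuclear subunits 5 fell, none rose, and the median net change was -0.42. Ndufv1 (chr19:4007497-4012806 of GRCm38, minus strand), which binds NADH and the flavin mononucleotide, is the entry point of electrons. At day 4 its level was 48.7, 55.6, 58.3 and 53.4 CPM with shOgdh346 and 59.4, 52.5, 53.7 and 57.7 CPM with shOgdh2081, against 87.4, 85.9, 89.6 and 87.8 CPM in the control. All 8 Ogdh libraries of day 4 thus lay below all 4 control libraries, by a wide gap. The libraries of day 0 held 94.2, 92.3, 89.2 and 93.5 CPM with shOgdh346 and 82.8, 83.9, 92.5 and 91.5 CPM with shOgdh2081, against 92.4, 87.3, 96.2 and 91.1 CPM in the control, and there the groups overlapped. The net change of Ndufv1 was -0.65 ± 0.10 (SE, adjusted p = 0.00101). Its neighbour in the N module, Ndufv2, which holds an iron-sulphur cluster, fell by 0.54 ± 0.10 (adjusted p = 0.00272). Ndufs7 and Ndufs8 carry the last clusters before ubiquinone, in the Q module. Ndufs7 fell by 0.51 ± 0.12 and Ndufs8 by 0.42 ± 0.13 on the log2 scale, and Ndufs3, an early-assembling subunit of the Q module, by 0.42 ± 0.11. The largest core subunit, Ndufs1, had a net change of -0.17 ± 0.09 and did not pass the threshold (adjusted p = 0.161).

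The core subunit Ndufs7 (chr10:80249121-80256794, plus strand) was also the member with the smallest p between the hairpins. It stood at 32.5, 31.0, 38.9 and 36.3 CPM with shOgdh346 and at 37.9, 42.2, 37.1 and 40.2 CPM with shOgdh2081 at day 4, against 49.9, 53.8, 58.5 and 62.5 CPM in the control. Every Ogdh library of day 4 was below the control. The day 0 libraries held 65.3, 64.2, 60.4 and 60.9 CPM with shOgdh346 and 55.3, 56.4, 50.8 and 54.0 CPM with shOgdh2081, against 64.4, 57.7, 65.6 and 66.0 CPM in the control, so that all shOgdh2081 libraries were below all shOgdh346 and all control libraries before doxycycline. Its net change was -0.72 ± 0.14 with shOgdh346 and -0.31 ± 0.14 with shOgdh2081, a difference of -0.41 ± 0.14 that did not pass (adjusted p = 0.427).

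Of the accessory subunits of the N and Q modules, 3 of 9 fell and 1 rose, and the median net change was -0.06. Ndufa5 (chr6:24518666-24528013, minus strand) is a small subunit of the Q module. Its level at day 4 was 15.5, 17.2, 19.9 and 19.5 CPM with shOgdh346 and 17.98, 17.6, 18.7 and 19.6 CPM with shOgdh2081, against 27.4, 31.7, 34.7 and 32.9 CPM in the control. At day 0 it was 37.83, 31.6, 35.3 and 35.8 CPM with shOgdh346 and 32.1, 36.0, 37.77 and 33.5 CPM with shOgdh2081, against 32.05, 32.2, 37.4 and 34.3 CPM in the control. The groups were well apart at day 4 and overlapped at day 0, and Ndufa5 fell by 0.87 ± 0.13 on the log2 scale (adjusted p = 0.00104). Ndufa12, the paralog of the assembly factor Ndufaf2, fell by 0.62 ± 0.12, and Ndufa9, near the ubiquinone site, by 0.39 ± 0.11.

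Ndufv3 (chr17:31520115-31531326, plus strand), a small subunit of the N module, moved the other way. It had 78.9, 91.3, 97.1 and 89.8 CPM with shOgdh346 and 77.7, 77.1, 80.8 and 82.7 CPM with shOgdh2081 at day 4, against 70.7, 65.4, 74.8 and 76.1 CPM in the control. The groups did not overlap at day 4, but the lowest Ogdh library was within about 1 CPM of the highest control library. Its libraries of day 0 had 82.9, 70.0, 79.9 and 65.2 CPM with shOgdh346 and 85.2, 74.9, 85.8 and 59.9 CPM with shOgdh2081, against 87.2, 71.9, 87.7 and 77.9 CPM in the control. The spread in each group was wide, and in every clone replicate 1 of day 0 stood above replicate 2. Its net rise of 0.32 ± 0.11 was just past the threshold (adjusted p = 0.0491), and the call was lost under 24 of the 38 alternative settings, DESeq2 among them. Of the other members of these modules, Ndufs6 stood at -0.23, Ndufa7 at -0.06, Ndufa2 at -0.04, Ndufs4 at 0.02 and Ndufa6 at 0.13, none past the threshold. Ndufa2 had the highest level per kilobase of the deposited transcript length, with a mean of 148.7 CPM per kilobase over all libraries, but stood behind Ndufa4 by the length of the longest coding transcript. Its day 4 libraries held 66.5, 73.1, 76.3 and 79.8 CPM with shOgdh346 and 94.8, 92.1, 73.0 and 70.4 CPM with shOgdh2081, against 77.2, 83.2, 91.3 and 92.4 CPM in the control. Those of day 0 held 89.1, 85.6, 78.1 and 87.3 CPM with shOgdh346 and 84.3, 85.7, 91.0 and 92.7 CPM with shOgdh2081, against 94.6, 90.2, 102 and 90.4 CPM in the control. The Ogdh and control groups overlapped at both days.

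In the proximal membrane arm 3 of 9 accessory subunits fell and 1 rose, with a median of -0.22. Ndufa10 fell by 0.56 ± 0.13, Ndufa3 by 0.46 ± 0.12 and Ndufc2 by 0.45 ± 0.10 on the log2 scale. Ndufc2 (chr7:97400003-97407802, plus strand) had 47.9, 44.5, 57.1 and 53.1 CPM with shOgdh346 and 71.8, 58.2, 59.3 and 64.1 CPM with shOgdh2081 at day 4, against 66.9, 70.7, 75.5 and 75.5 CPM in the control. All 4 shOgdh346 libraries were below the control, while 1 shOgdh2081 library lay among the control values. Its day 0 libraries had 79.2, 75.0, 84.6 and 81.0 CPM with shOgdh346 and 94.5, 77.1, 82.3 and 84.5 CPM with shOgdh2081, against 76.6, 67.8, 83.2 and 83.0 CPM in the control, which overlap. Its net change was -0.60 ± 0.11 with shOgdh346 and -0.30 ± 0.11 with shOgdh2081, which differed by -0.30 ± 0.11 (adjusted p = 0.438).

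Ndufa13 (chr8:69894180-69902558, minus strand), also known as GRIM-19 and required for complex I assembly in the mouse, was the largest rise. Its level at day 4 was 106, 109, 105 and 105 CPM with shOgdh346 and 108, 104, 96.0 and 99.7 CPM with shOgdh2081, against 72.0, 74.0, 77.2 and 81.9 CPM in the control. Every Ogdh library was above every control library. Libraries of day 0 held 82.7, 82.0, 79.4 and 81.8 CPM with shOgdh346 and 71.0, 72.2, 71.9 and 74.7 CPM with shOgdh2081, against 74.7, 74.2, 89.4 and 76.7 CPM in the control, and the shOgdh2081 libraries were there among or below the lowest control values. The net rise was 0.47 ± 0.09 (adjusted p = 0.00361), 0.41 ± 0.10 with shOgdh346 and 0.54 ± 0.10 with shOgdh2081. It lost its call without either control clone, with the change itself between 0.40 and 0.52 over all libraries and clones left out. The whole of Ndufa13, 8379 bases, also lies within Yjefn3 on the same strand in the deposited coordinates, and Tssk6 overlaps it by 375 bases on the other strand. Yjefn3 had 318 counts and Tssk6 922 over all libraries, against 21644 for Ndufa13. The other proximal members stood between -0.26 (Ndufa11) and -0.04 (Ndufa1) and did not pass.

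In the distal membrane arm all 11 accessory subunits were below 0, from -0.57 to -0.22, with a median of -0.42. Of these 4 passed the test. Ndufb5 fell by 0.57 ± 0.09 (adjusted p = 0.00167), Ndufab1 by 0.48 ± 0.12, Ndufb10 by 0.42 ± 0.10 and Ndufb8 by 0.32 ± 0.11. Ndufab1 is the mitochondrial acyl carrier protein, which also serves lipoic acid synthesis, the cofactor of the enzyme that Ogdh belongs to. A further 4 members, Ndufb4 (-0.57), Ndufb6 (-0.47), Ndufb9 (-0.45) and Ndufb7 (-0.41), had changes within the range of those called but adjusted p between 0.0502 and 0.0711. Ndufb7, Ndufb9 and Ndufb6 passed under 18, 18 and 8 of the 38 alternative settings. Ndufb4 was thinly counted, with a mean of 6.23 CPM over all libraries.

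Of the 8 Ndufaf assembly factors 5 fell, none rose, and the median of -0.59 was the lowest of the role classes. Ndufaf4 (chr4:24898083-24905001, plus strand) works with Ndufaf3 in human cells in the assembly of the Q module. Its level at day 4 was 16.5, 14.6, 22.02 and 19.98 CPM with shOgdh346 and 22.4, 21.5, 16.8 and 16.6 CPM with shOgdh2081, against 38.9, 39.2, 39.2 and 39.2 CPM in the control. The highest Ogdh library was well under the lowest control library. Before doxycycline the libraries held 37.77, 35.5, 47.6 and 46.4 CPM with shOgdh346 and 49.0, 41.7, 43.2 and 41.9 CPM with shOgdh2081, against 37.1, 38.4, 37.4 and 38.4 CPM in the control, so that most Ogdh libraries started above the control. Ndufaf4 fell by 1.27 ± 0.13 on the log2 scale (adjusted p = 0.000189), and had the lowest day 4 minus day 0 change of all 45 members in each of the 4 Ogdh clones. The net change was -1.29 ± 0.15 with shOgdh346 and -1.25 ± 0.15 with shOgdh2081, and their difference was -0.04 ± 0.15.

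Ndufaf2 (chr13:108002715-108158623, minus strand), a paralog of the subunit Ndufa12, is known in human cells as an assembly factor of the N module. It had 5.12, 6.002, 7.97 and 7.77 CPM with shOgdh346 and 10.1, 8.54, 9.21 and 7.08 CPM with shOgdh2081 at day 4, against 11.4, 14.8, 11.4 and 13.5 CPM in the control. At day 0 it had 13.2, 11.04, 14.2 and 13.9 CPM with shOgdh346 and 14.6, 13.8, 14.8 and 13.03 CPM with shOgdh2081, against 12.8, 14.4, 14.9 and 15.2 CPM in the control. Its groups did not overlap at day 4 and did at day 0, and it fell by 0.69 ± 0.18 on the log2 scale (adjusted p = 0.0161). Smim15 overlaps it by 4727 bases on the other strand and had 10208 counts over all libraries against 2866, and without the strand setting of the counting their reads cannot be told apart. Ndufaf5, an arginine hydroxylase that acts on Ndufs7 in human cells, fell by 0.65 ± 0.18 on the log2 scale. Its partner Ndufaf8 fell by 0.62 ± 0.15 and Ndufaf3 by 0.56 ± 0.13. Ndufaf6 stood at -0.30 ± 0.23, Ndufaf1, of the membrane arm intermediate, at -0.03 ± 0.15, and Ndufaf7, a methyltransferase, at 0.03 ± 0.15. None of these passed, and the signs of Ndufaf1 and Ndufaf7 turned under another scaling.

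**Figure D2:**
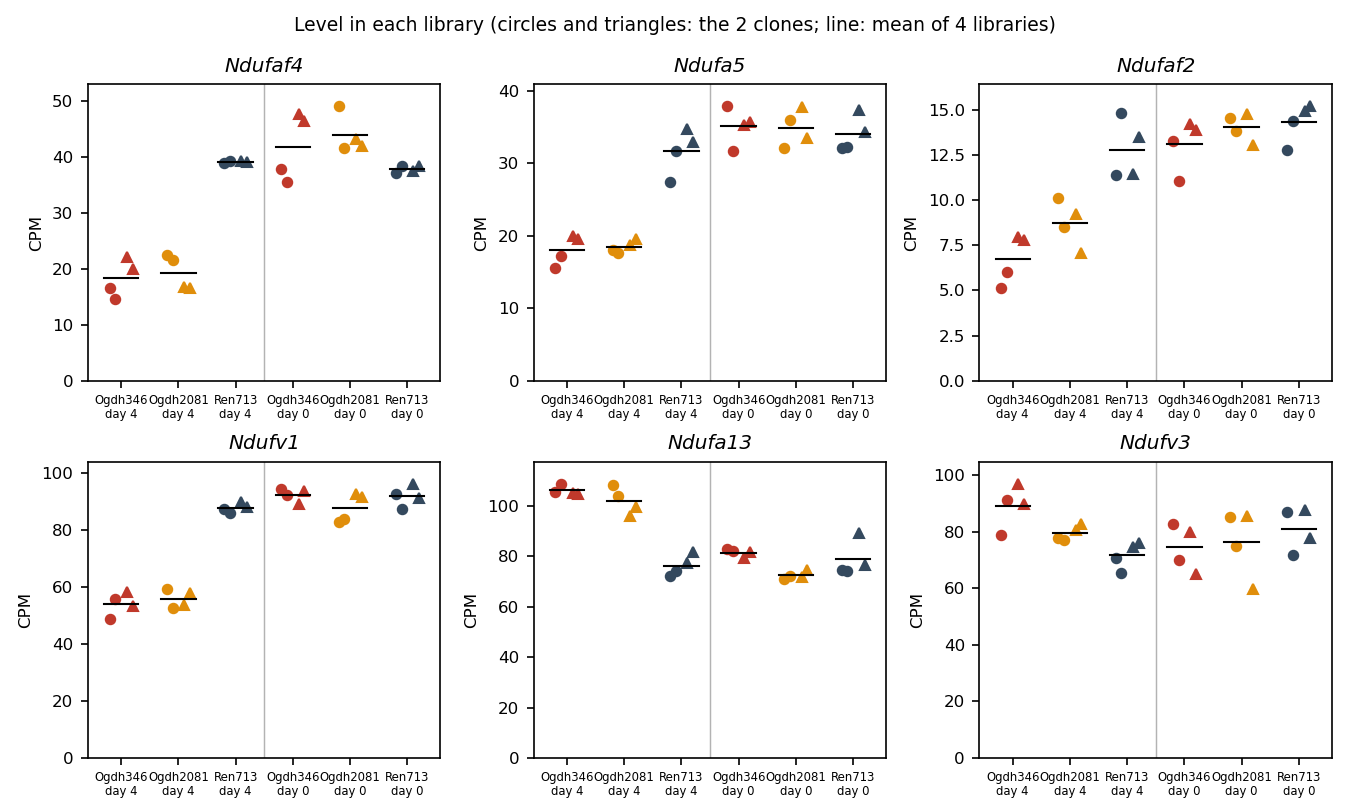
CPM (y axis, from 0) in each of the 24 libraries for the 4 largest falls and the 2 rises, with the day 4 groups left of the grey line and the day 0 groups right of it. Circles and triangles mark the 2 clones of a hairpin and the line is the mean of 4 libraries. At day 4 Ndufaf4 lies between 14.6 and 22.4 CPM in the Ogdh libraries, against 38.9 to 39.2 CPM in the control.

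Outside complex I stand a pair of paralogs. Ndufa4 (chr6:11900292-11907497, minus strand), first described as a complex I subunit and now assigned to cytochrome c oxidase (complex IV), averaged 126 CPM per kilobase of the deposited transcript length, second to Ndufa2 among the members. Per kilobase of its longest coding transcript it averaged 286 CPM, above the 148.7 CPM of Ndufa2 on that scale. It had 136, 131, 155 and 143 CPM with shOgdh346 and 165, 153, 158 and 150.2 CPM with shOgdh2081 at day 4, against 193, 184, 188 and 185 CPM in the control. Every Ogdh library was below every control library. Its day 0 levels were 196, 172, 197 and 183 CPM with shOgdh346 and 183, 192, 202 and 192 CPM with shOgdh2081, against 186, 182, 188 and 172 CPM in the control, which overlap, and it fell by 0.41 ± 0.09 on the log2 scale (adjusted p = 0.00821). Ndufa4l2, known as a hypoxia-inducible gene, had 11 counts over all libraries, at most 2 in a library, and was not tested.

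Counted library by library, 26 of 45 members had every Ogdh library below every control library at day 4, and 3 (Ndufa13, Ndufv3 and Ndufa6) had every Ogdh library above. Of the 12652 genes measured this way, 21% lay below and 19.1% above. At day 0 the counts were 0 below and 0 above among the members, with 0.340% and 0.229% of all genes. The fit of levels at day 4 called 28 members lower and 1 higher, with 21.2% lower and 17.5% higher of all genes. At day 0 that fit called 0 lower and 0 higher, with 0% of all genes called, and no member had an unadjusted p under 0.05, the smallest being 0.215. By DESeq2 the day 0 counts were 0 as well. In these fits of levels each clone enters at both days, so their degrees of freedom are overstated. The level summed over all 46 members was taken on unscaled library totals. At day 4 it was 1861 to 2190 CPM with shOgdh346 and 2184 to 2253 CPM with shOgdh2081. The control held 2637 to 2847 CPM. The day 0 sums were 2823 to 2920 CPM, 2781 to 2840 CPM and 2709 to 2996 CPM for shOgdh346, shOgdh2081 and the control, which overlap.

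The median day 4 minus day 0 change of the 45 members was -0.68 in clone 1 and -0.40 in clone 5 of shOgdh346, and -0.32 in clone 3 and -0.42 in clone 5 of shOgdh2081, against -0.06 in clone 2 and -0.09 in clone 7 of the control. The median of all genes lay between -0.007 and 0.021 in these 6 clones. In 31 of the 45 members all 4 Ogdh clones changed to below both control clones, and in 2, Ndufa13 and Ndufv3, to above them, with shares of 29.2% and 28.2% over all genes tested. In the control hairpin alone 0 members fell and 0 rose, with 2.44% of all genes falling and 4.44% rising. There, 4 members had an unadjusted p under 0.05, all lower at day 4, but the share of all genes at that threshold was not counted. The smallest adjusted p in the control was 0.100 (Ndufa8, -0.25 ± 0.08). DESeq2 likewise called 0 in each direction. With shOgdh346 alone, 33 members fell and 1 rose from day 0, with 29.3% and 30.2% of all genes, and with shOgdh2081 29 fell and 1 rose, with 25.9% and 27.5%. The riser was Ndufa13 in both cases.

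**Figure D3:**
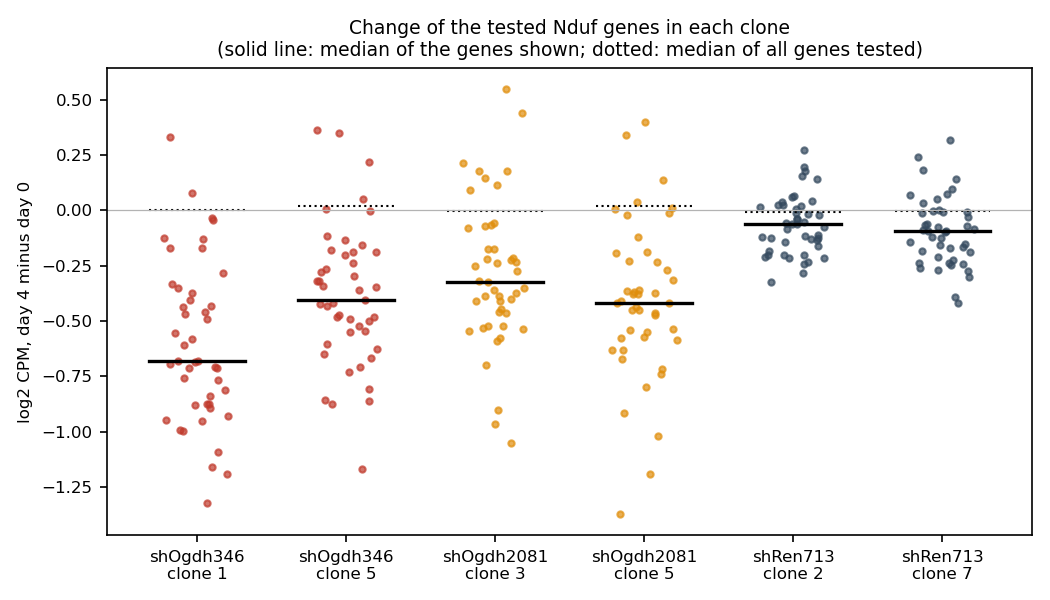
Day 4 minus day 0 change in log2 CPM (y axis) of the 45 tested Nduf genes in each clone (columns, Ogdh hairpins left of the control). Each point is a gene, the solid line the median of these genes and the dotted line the median of all genes tested. Medians run from -0.68 to -0.32 in the Ogdh clones and are -0.06 and -0.09 in the control clones.

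Taken hairpin by hairpin, against the same control clones, 22 members fell and 2 rose with shOgdh346, where 18.4% of all genes fell and 16.4% rose. With shOgdh2081 11 fell and 1 rose, where 14.2% fell and 13.6% rose. Single clones moved these counts. With shOgdh346 8 fell without shRen713 clone 2 and 9 without shRen713 clone 7, with 8.10% and 7.28% of all genes. Without shOgdh346 clone 1, 11 fell, with 12.1% of all genes. With shOgdh2081 2 fell without shRen713 clone 2 and 1 without shRen713 clone 7, with 4.15% and 3.52% of all genes. Without shOgdh2081 clone 5, 7 fell, with 10.2% of all genes. The median net change was -0.46 with shOgdh346 and -0.31 with shOgdh2081. The difference between the hairpins was itself tested: no member passed, against 0.105% of all genes in either direction. The smallest adjusted p was 0.427, and DESeq2 called 0 members as well. An unadjusted p under 0.05 was met by 4 members, and the share of all genes at that threshold was not counted. In sign, 39 of 45 differences were below 0, that is lower with shOgdh346, with a median of -0.14 against -0.02 over all genes. The share of all genes below 0 was not counted, and members that move together make this count no test. Clones of a hairpin differed too. The median change was -0.68 in shOgdh346 clone 1 and -0.40 in shOgdh346 clone 5. The latter lay between those of shOgdh2081 clone 3 (-0.32) and clone 5 (-0.42). The core median was -0.51 with shOgdh346 and -0.34 with shOgdh2081, and the median of the assembly factors was -0.65 with shOgdh346 and -0.45 with shOgdh2081.

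Many Nduf genes start beside a gene on the other strand, and 19 such pairs start within 1000 bases of each other. These neighbours were chosen after their values were seen. Of all genes tested 19.8% fell and 17.9% rose, and whether paired genes move together was not tested. In 4 pairs both genes fell: Ndufaf2 with Ercc8 (-0.63), Ndufaf5 with Esf1 (-0.82), Ndufb5 with the mitochondrial ribosomal gene Mrpl47 (-0.77), and Ndufa4 with Phf14 (-0.41). In 2 pairs the genes were called in opposite directions. Ndufaf8 fell (-0.62) beside Tepsin, which rose (0.43), and Ndufv3 rose (0.32) beside Wdr4, which fell (-0.63). In 2 further pairs the neighbour fell and the Nduf gene did not pass, Ndufs6 with Mrpl36 (-0.70) and Ndufb11 with Rbm10 (-0.49). In the other 11 pairs the neighbour did not pass. Some of these pairs overlap, Ndufb5 and Mrpl47 by 616 bases, and their values carry the uncertainty over strand.

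**Figure D4:**
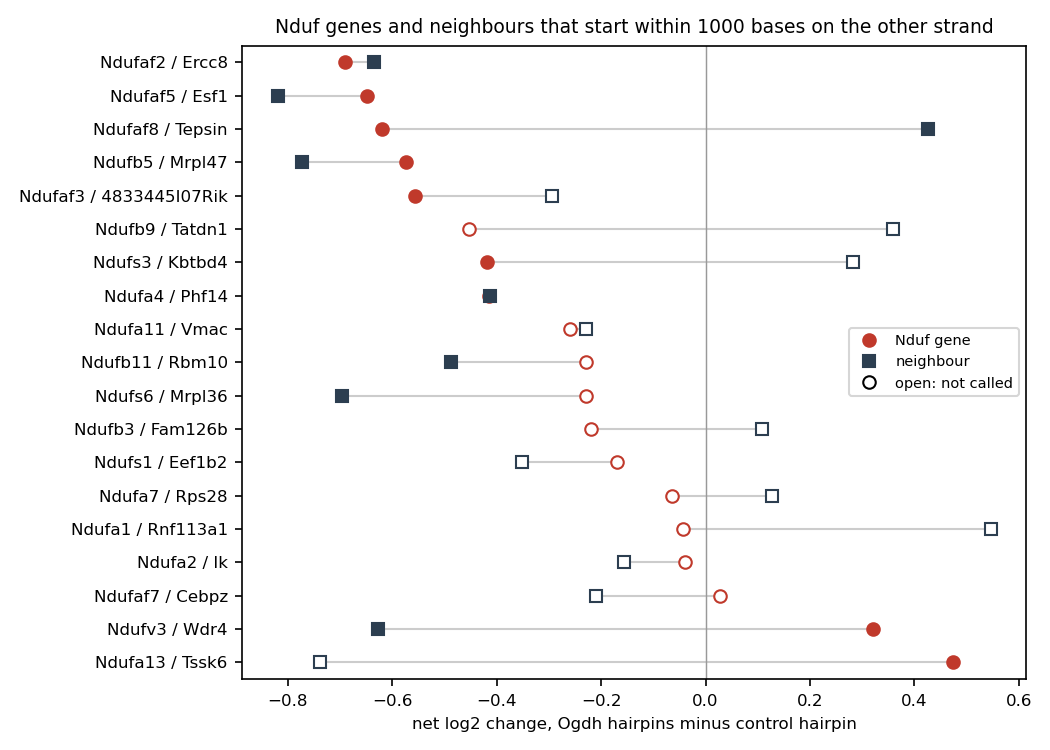
Net log2 change (x axis, mean of both Ogdh hairpins) of Nduf genes (circles) and of neighbours that start within 1000 bases on the other strand (squares), filled where the adjusted p was under 0.05. The pairs Ndufaf8 with Tepsin (-0.62 and 0.43) and Ndufv3 with Wdr4 (0.32 and -0.63) lie on opposite sides of 0.

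Complex I has further genes without an Nduf name. Of the mitochondrially encoded Nd subunits, the proton pumps of the membrane arm, 5 were tested and 0 passed by edgeR, with a median of 0.10, mt-Nd1 at -0.41 ± 0.15 (adjusted p = 0.0566) and mt-Nd2 at -0.27 ± 0.13. Of these 5, 1 (mt-Nd1) had an unadjusted p under 0.05, and DESeq2 called that gene lower (adjusted p = 0.0241). The remaining 2, mt-Nd3 and mt-Nd4l, were listed at 0 in every library. Among 13 assembly factors of complex I that do not carry an Nduf name, 5 fell and none rose, with a median of -0.33. The falls with the smallest p were Foxred1 (-0.66 ± 0.10) and Ecsit (-0.83 ± 0.16), which act on the membrane arm in human cells.

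Other mitochondrial genes give the scale. Of the nuclear subunits of complexes II to V, 41 of 46 were tested, 19 fell and none rose, with a median of -0.26, and Cox6a2 (-1.71 ± 0.28) and Atp5g2 (-0.68 ± 0.11) had the smallest p. Within this list the lowest net change was -2.73 with shOgdh346 and -0.75 with shOgdh2081, and no gene passed the test between the hairpins. Of the mitochondrial ribosomal proteins, 77 of 78 were tested, 46 fell and none rose, with a median of -0.42, and Mrpl33 (-1.03 ± 0.10) and Mrpl42 (-1.10 ± 0.14) had the smallest p. The share that fell was thus 46.7% for Nduf genes, 46.3% for complexes II to V and 59.7% for mitochondrial ribosomal proteins. Enzymes and carriers that supply NADH had 6 falls and no rise among 12, with Slc25a12, the aspartate-glutamate carrier, at -0.70 ± 0.09 and Idh3a, a subunit of the NAD-linked isocitrate dehydrogenase, at -0.82 ± 0.11. Among 11 tested regulators of respiratory chain transcription 5 fell and 1 rose, with Pprc1 (-0.64 ± 0.09), a coactivator of the PGC-1 family, and Tfam (-0.64 ± 0.11), which packages mitochondrial DNA, having the smallest p. The riser, named after its values were seen, was Esrra (0.51), which encodes an orphan nuclear receptor.

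**Figure D5:**
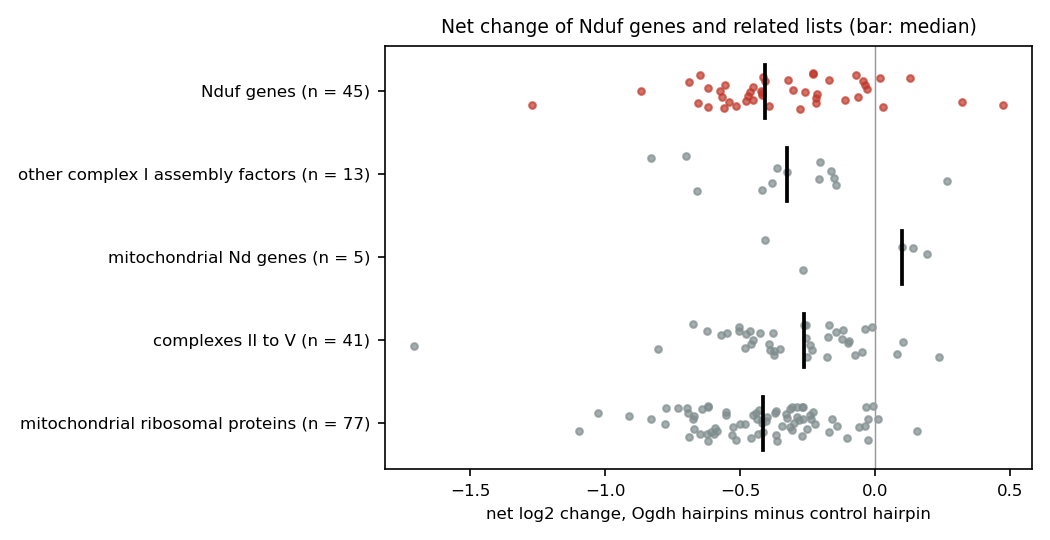
Net log2 change (x axis, mean of both Ogdh hairpins) of the tested genes of 5 lists, with the Nduf genes on top. Each point is a gene and the bar the median, which is -0.41 for Nduf genes, -0.33 for other complex I assembly factors, 0.10 for mitochondrial Nd genes, -0.26 for complexes II to V and -0.42 for mitochondrial ribosomal proteins.

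Growth and maturation genes moved with the same contrast. All 12 cell cycle genes fell, with a median of -0.98, led by Cdc6 (-1.26 ± 0.10) and Ccna2 (-1.18 ± 0.09). On unscaled library totals their summed level was 2060 to 3140 CPM in the Ogdh libraries of day 4, against 4600 to 5120 CPM in the control. Of 12 neutrophil maturation genes 9 rose and none fell, with a median of 2.94, S100a9 at 4.67 ± 0.24 and Itgam at 2.07 ± 0.11. Their sum on unscaled totals was 7120 to 42000 CPM in the Ogdh libraries of day 4 and 640 to 1710 CPM in the control. At day 0 the sums were 639 to 3420 CPM in the Ogdh libraries and 461 to 2220 CPM in the control. The part of cell cycle and maturation genes in the values of the Nduf genes was not tested. All 10 genes of a list for the myeloid leukaemia line were tested, of which 4 (Mpo, Elane, Ctsg and Kit) fell and 2 (Ptprc and Spi1) rose, all 6 named after their values were seen. Of 15 markers of T, B, red, epithelial and stromal cells, 14 stayed at or below 1.82 CPM on unscaled library totals in every library, and Cd3e, Hbb-bs and Col1a2 were at 0. The exception was Pdgfrb, with up to 69.1 CPM on unscaled totals, and Pdgfrb and Col1a1 rose among the 4 markers tested. On the same unscaled totals the sum of all 15 markers was 9.50 to 73.2 CPM in the Ogdh libraries of day 4. In the control of day 4 it was 5.62 to 23.9 CPM.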

How the data were processed

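Whole-number counts per gene were deposited by the authors in a single table. The submitters' processing notes name FastQC 0.11.5, Trimmomatic 0.36, STAR 2.6.1a, featureCounts 1.6.3 and the mouse build mm10 (GRCm38), while the labels' protocol names a human build, HTSeq and RPKM. The identifiers are mouse and the values are whole numbers. The strand setting and annotation release were not given in the sources used here. Overlapping genes therefore have uncertain values.

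Counts were summed over the 2 libraries that share a clone and day. edgeR 4.0.16 (R 4.3.3) was run with filterByExpr, TMM scaling and robust quasi-likelihood fits, with the clone as block and a day 4 term per hairpin, leaving 3 residual degrees of freedom, to which a median of 6.11 prior degrees were added. Levels at 1 day were compared over the 6 groups without a block. P-values were adjusted by Benjamini-Hochberg over all 14249 genes, and 0.05 was the threshold. CPM per library used TMM over 24 libraries, for the 12652 genes that pass there, and clone changes used log2 CPM with a prior count of 2. Levels summed over a list used unscaled library totals. The clone pairs the days per the labels, and clone deviations at day 0 and day 4 correlated over genes with r of 0.84 (shRen713), 0.60 (shOgdh346) and 0.67 (shOgdh2081).

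The script was run on simulated counts that held no differences between clones and few changed genes. That run checks the computation and not how the p-values behave on these data. Genes shown library by library were the 4 largest falls and up to 4 largest rises that passed, the highest level per kilobase, Ndufa4, Ndufa4l2 and the 2 smallest p between hairpins, and non-members were Ogdh and the 2 smallest p per list. Members, roles and lists were chosen with earlier results of these data known. The deposited length of 35 members equals the merged exon length of GENCODE M21, which understates levels per kilobase for genes with long isoforms. The alternatives, 38 in all, were other scaling, no filter, no block, 24 unsummed libraries, the day 0 libraries of 1 replicate number, DESeq2 1.42.0, and leaving out each library and each clone. The values of 1 core subunit are not reported here by name.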

Additional observations from a re-analysis of the deposited data

Results flagged for a closer look

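Among 60 sets of 4 libraries of the shown genes that were examined for a library standing apart, 1 was found, where chance gives about 1 in 20. Ndufa13 in the control at day 0 had 89.4 CPM in replicate 1 of shRen713 clone 7, with the nearest other library at 76.7 CPM. The gap was 0.838 of the range of the group, above Dixon's 95% critical value for 4 samples. Without that library the net change of Ndufa13 was 0.40, against 0.47 with it, and still passed the threshold (adjusted p = 0.0102, edgeR).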

How the results depend on the processing

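The median net change of the Nduf genes stayed below 0 under all 38 alternatives, between -0.454 and -0.329 when a library or clone was left out. Without the replicate block, 13 members fell and 1 rose over both hairpins, with 11.2% and 7.92% of all genes. With shOgdh346 11 fell and 0 rose (9.79% and 6.32% of all genes), and with shOgdh2081 4 fell (4.97%). Over both hairpins 1 rose with no scaling, no filter, the day 0 libraries of replicate 1 alone, or DESeq2. The shares of all genes that rose there were 14.8%, 9.41%, 15.4% and 15.4%. With shOgdh346 1 rose with no scaling or no filter, with 13.1% and 8.72% of all genes. With shOgdh2081 22 fell when the 24 libraries were fitted with clone and replicate number as replicate block, and 18 with the day 0 libraries of replicate 2 alone. In the change from day 0, 2 rose with shOgdh346 under RLE scaling, the 24 libraries, or day 0 replicate 2 alone. The shares of all genes that rose there were 31.4%, 35.9% and 29.2%. In shOgdh2081 3 rose with the 24 libraries and 2 with day 0 replicate 2 alone, with 33.4% and 26.2% of all genes. In the control 4 fell with the 24 libraries, with 7.63% of all genes. At day 4, 2 levels were higher under RLE scaling and DESeq2, with 18.6% and 19.2% of all genes.

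When a library or clone was left out, the members that fell over both hairpins numbered 6 to 27 and those that rose 0 to 2. For shOgdh346 these were 8 to 27 and 0 to 2, and for shOgdh2081 1 to 15 and 0 to 1. The 8 came without shRen713 clone 2 and the 1 without shRen713 clone 7, with 8.10% and 3.52% of all genes. In the change from day 0 they were 24 to 35 and 1 to 2 for shOgdh346 and 19 to 29 and 1 to 2 for shOgdh2081. The 19 came without shOgdh2081 clone 5, with 18.8% of all genes. Levels at day 4 were lower for 9 to 30 and higher for 1 to 2 members. The 9 came without shRen713 clone 7, with 11.5% of all genes. Over both hairpins 6 fell without shRen713 clone 2 and 6 without shRen713 clone 7, with 8.20% and 7.30% of all genes. Without one of the Ogdh clones 20 to 27 fell, with 18.1% to 20.2% of all genes.

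Of the 23 members called, 5 (Ndufa5, Ndufaf4, Ndufb5, Ndufv1 and Ndufv2) kept the call under every alternative and 14 under every alternative other than leaving out a control clone. Ndufv3 lost it under 24 and Ndufb8 under 15. None of the 23 changed sign. Of the 22 others, 7 did. Ndufa1 reached 0.0412 and Ndufa2 0.0204 with day 0 replicate 1 alone, Ndufa7 0.00288 with day 0 replicate 2 alone, and Ndufaf1 0.000828 under RLE scaling, 0.124 with day 0 replicate 2 alone and 0.00167 by DESeq2. Ndufaf7 reached -0.0573 and Ndufs4 -0.0675 with no scaling, and Ndufs4 -0.00224 with no filter and -0.0289 with day 0 replicate 2 alone. With a library or clone left out, Ndufa1 ran from -0.126 to 0.0227, Ndufa2 from -0.171 to 0.078, Ndufaf1 from -0.199 to 0.132, Ndufaf7 from -0.0951 to 0.135, Ndufs4 from -0.0586 to 0.079 and Ndufs5 from -0.241 to 0.0767. The cause of these shifts was not tested.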
